A study of Mus musculus with 6 samples.

Results

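The regions described here are stretches of open chromatin that leaned to p53-null thymus. Open chromatin was mapped by ATAC-seq, in which a transposase inserts sequencing adapters into accessible DNA, in 6 thymus libraries of mice aged 4 weeks. The background strain was 50% BALB/C and 50% C57BL6. Of the 6 libraries, 3 came from p53 AD/- mice, which carry 1 allele named AD (dimeric, in the words of the series) and 1 null allele, and 3 from p53 -/- mice, which carry the null allele on both chromosomes. The alteration is germline, so every cell of the thymus carries it, and neither genotype carries a wild-type p53 allele. A region was a merged window of 250 bp on each side of the deposited peak summits on chromosomes 1 to 19. It counted as null leaning when at least 2 of the 3 null libraries and none of the 3 AD/- libraries had a summit in it, and no AD/- summit lay within 2 kb of it. This rule was met by 1097 of 72291 regions (1.52%), and the same rule with the genotypes exchanged was met by 614 (0.849%). Leaving out a null library changed which genotype had more. Without null library 1, 2 or 3, with 2 null libraries required, 587, 484 and 412 regions leaned to null and 911, 1010 and 1242 to AD/-. Without AD/- library 1, 2 or 3, 1749, 3061 and 1270 leaned to null and 149, 112 and 462 to AD/-. Leaving out a library makes the rule stricter for its genotype and looser for the other, so the direction of these shifts is set by the rule. Presence and absence of summits, and with them their scores in the null libraries, chose these regions, so both are given as descriptions without a test.

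p53 is a transcription factor that binds DNA as a tetramer and controls cell cycle arrest, apoptosis and metabolism after stress. The thymus consists mainly of developing T cells, and mice without p53 are known for thymic lymphoma later in life. Open regions in thymocytes fall into promoters, which tend to be open in many cell types, and distal elements such as enhancers, which are more often specific to a cell type. As a check of the tissue, 60 to 62 of 62 T cell development genes had a summit within 1 kb of a gene start in a library, compared with 5 to 6 of 16 B cell marker genes, 7 to 9 of 18 erythroid and progenitor genes and 6 to 10 of 20 thymic epithelial genes. The lowest of each of these ranges was in AD/- library 3, which also had the fewest autosomal summits, 43589 against 53102 to 58996 in the other 5 libraries. In these bulk samples, a smaller share of cells with an open region and a weaker opening in each cell cannot be told apart.

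Few null-leaning regions lay at a promoter, and 18 of them overlapped a RefSeq promoter window (250 bases before to 50 bases after a start site, GRCm38.p6). The upstream 250 bases are shown for 7 of these. The first 6 are the highest-ranked by score among those whose summits all lay inside the window, and Cfap126 was the only one of the 18 with a summit in all 3 null libraries. Capitals mark matches, on either strand, to the motifs searched other than the E-box; those in the stretches shown are AP-1 (TGANTCA) and KLF/SP (CCGCCC). Sequences run 5′ to 3′ in the direction of the gene.
Mctp1: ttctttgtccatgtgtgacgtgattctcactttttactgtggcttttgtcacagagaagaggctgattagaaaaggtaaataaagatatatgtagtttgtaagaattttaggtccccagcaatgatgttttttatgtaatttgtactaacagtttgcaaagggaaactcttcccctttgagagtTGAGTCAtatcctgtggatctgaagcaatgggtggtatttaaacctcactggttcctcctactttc
Zfp937: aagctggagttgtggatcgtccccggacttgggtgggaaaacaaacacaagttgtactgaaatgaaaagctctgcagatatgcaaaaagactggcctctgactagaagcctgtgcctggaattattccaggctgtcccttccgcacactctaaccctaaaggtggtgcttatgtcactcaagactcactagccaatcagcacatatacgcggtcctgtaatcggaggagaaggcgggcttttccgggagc
Ryr2: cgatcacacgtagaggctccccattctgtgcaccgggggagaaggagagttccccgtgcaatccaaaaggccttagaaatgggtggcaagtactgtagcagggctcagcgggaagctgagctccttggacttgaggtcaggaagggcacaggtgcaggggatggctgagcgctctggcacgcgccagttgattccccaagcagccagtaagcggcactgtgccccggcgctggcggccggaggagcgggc
Olig2: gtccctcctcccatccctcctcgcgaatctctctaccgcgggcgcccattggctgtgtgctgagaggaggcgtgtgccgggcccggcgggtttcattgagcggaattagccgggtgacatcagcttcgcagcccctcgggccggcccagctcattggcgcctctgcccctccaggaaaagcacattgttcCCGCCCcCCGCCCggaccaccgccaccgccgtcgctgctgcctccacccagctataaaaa
Myh14: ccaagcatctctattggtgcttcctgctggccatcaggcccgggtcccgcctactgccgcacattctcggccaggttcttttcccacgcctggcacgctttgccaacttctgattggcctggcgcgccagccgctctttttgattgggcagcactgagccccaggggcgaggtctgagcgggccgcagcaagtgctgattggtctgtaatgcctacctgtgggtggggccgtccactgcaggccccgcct
Atf7ip2: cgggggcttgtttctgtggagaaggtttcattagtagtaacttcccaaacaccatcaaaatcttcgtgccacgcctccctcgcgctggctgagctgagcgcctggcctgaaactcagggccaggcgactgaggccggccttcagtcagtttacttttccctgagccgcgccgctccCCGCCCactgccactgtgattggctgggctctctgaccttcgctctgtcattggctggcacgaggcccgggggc
Cfap126: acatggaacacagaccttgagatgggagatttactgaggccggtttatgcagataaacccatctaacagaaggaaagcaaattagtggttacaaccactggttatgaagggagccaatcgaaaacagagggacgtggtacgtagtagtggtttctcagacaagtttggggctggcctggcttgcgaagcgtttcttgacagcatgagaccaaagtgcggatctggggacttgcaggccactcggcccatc
These stretches are chr13:76579347-76579596 (+ strand) for Mctp1, chr2:150217849-150218098 (+) for Zfp937, chr13:12106946-12107195 (- strand) for Ryr2, chr16:91225300-91225549 (+) for Olig2, chr7:44670844-44671093 (-) for Myh14, chr16:10192656-10192905 (+) for Atf7ip2 and chr1:171113736-171113985 (+) for Cfap126. Mctp1 encodes a membrane protein with calcium-binding C2 domains, and its summits lay 5 bp before the start site in null library 1 and 38 bp after it in null library 3. Zfp937 is a zinc finger gene, with summits 5 and 3 bp before the start in null libraries 2 and 3. Ryr2 encodes the calcium release channel of heart muscle, with summits 7 and 27 bp before the start in null libraries 1 and 2. At Olig2, a transcription factor gene of oligodendrocytes and motor neurons, the summits of null libraries 2 and 3 lay 187 and 193 bp before the start, away from the side-by-side KLF/SP matches near the start. At Myh14, a nonmuscle myosin heavy chain gene, they lay 98 and 78 bp before the start in the same libraries. Those of Atf7ip2 lay 26 and 7 bp before its start in null libraries 2 and 3. Those of Cfap126, a gene of cilia, lay 89, 86 and 122 bp after its start in null libraries 1, 2 and 3.

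The promoter windows under null-leaning regions were close to all promoters in their CpG ratio and somewhat richer in G and C. The median G and C content was 61.5% over the 18 windows, 57% over all 20084 windows and 62.7% over the 9767 windows under regions found in all 6 libraries. The median ratio of observed to expected CpG was 0.58, 0.59 and 0.81 in the same order. The KLF/SP hexamer was present in 12 of 18 windows (66.7%) and 47% of all windows, and an E-box (CANNTG, not capitalised above) in 13 of 18 (72.2%) and 68.7%. An ETS heptamer (CCGGAAG) was in 2 windows (11.1% against 11.9% of all), AP-1 in 2 (11.1% against 7.06%), and RUNX (TGTGGTT), TCF/LEF (CTTTGAT) and an IRF motif in 1 each (5.56% against 4.77%, 3.26% and 3.38%). A p53 response element was found in 0 of 18 windows and 0.0448% of all, a CTCF motif in 0 and 0.334%, and AGATAAG, a motif of GATA factors, in 0 and 2.58%. With 18 windows, differences of this size rest on a few sequences.

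Most null-leaning regions were seen in 2 null libraries, and their scores were low. Scores were taken to be −log10 q-values, and the percentile of a score is its rank among the autosomal summits of the same library, with 100 at the top. A summit was present in all 3 null libraries in 192 regions (17.5% of the null-leaning regions, 0.266% of all regions; the exchanged rule with all 3 AD/- libraries gave 55, 0.0761%), in libraries 2 and 3 alone in 395, in 1 and 3 in 291 and in 1 and 2 in 219. Null libraries 1, 2 and 3 took part in 702, 806 and 878 regions, in the order of the lengths of their lists (53102, 54558 and 56836 autosomal summits). The median percentile of these summits was 12.4, 12.1 and 12.8 in the 3 libraries. Scores under 5 made up 36%, 17.1% and 27.9% of them, compared with 8.17%, 3.63% and 7.09% of all autosomal summits of the same libraries. The lowest percentile among the contributing libraries had a median of 8.0 (quartiles 3.13 and 16.3), was under 10 in 618 regions (56.3%), at least 25 in 104 (9.48%) and over 50 in 1.

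**Figure D1:**
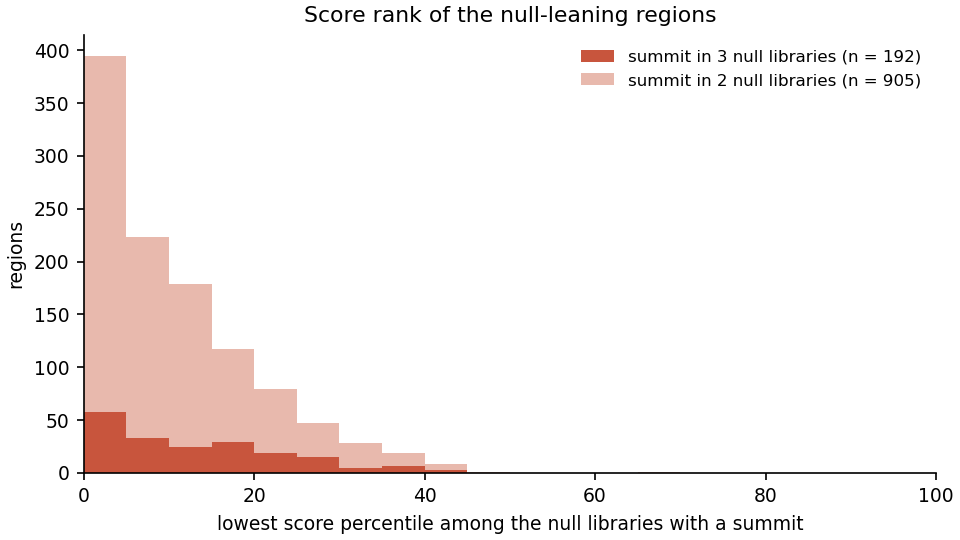
Number of null-leaning regions (vertical axis) by the lowest score percentile among the null libraries with a summit (horizontal axis, bins of 5 percentile points, 100 = highest score in a library), split by the number of null libraries. Most regions lie at the low end of both classes, and 104 of 1097 reach a percentile of at least 25.

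Regions found in few libraries of both genotypes had much the same ranks. For comparison, 4948 regions had summits in 2 or 3 libraries including both genotypes and no summit of a library without one within 2 kb; their median lowest percentile was 7.36 (quartiles 3.13 and 15.1). In the 614 regions that leaned to AD/- it was 4.97, 440 of them (71.7%) were under 10 and 17 (2.77%) were at least 25. In regions found in all 6 libraries it was 55.1. The summits of a null-leaning region lay close together in the libraries that had them, with a median range of 28 bp (quartiles 7 and 58), compared with 41 bp in the regions of both genotypes and 46 bp in the AD/- leaning ones. More than 1 summit of a library fell into 3 of the 1097 regions.

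The distance rule removed 612 of the 1709 regions (35.8%) with at least 2 null and no AD/- summits. Of the exchanged rule's regions, 43.3% were lost. From the edge of a null-leaning region the nearest AD/- summit was a median of 7056 bp away (quartiles 4027 and 14314). The 3 regions closest to the limit on the inside were near Trim16, Foxb1 and C1qtnf1, 2005, 2009 and 2014 bp from an AD/- summit, with lowest percentiles of 10.9, 31.4 and 3.87. On the outside were regions nearest to Frmd4b, Id2 and Ube2r2, at 2000, 2000 and 1989 bp, with lowest percentiles of 0.539, 15.8 and 0.539. The ranks of the regions on either side of the limit overlapped.

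Whether regions chosen this way recur was read in libraries that took no part in the choice. Regions were chosen from 2 null and 2 AD/- libraries, and the remaining null and AD/- libraries were then read, in all 9 combinations, which overlap and were therefore not tested. Of the regions present in 2 null and absent from 2 AD/- libraries (489 to 1895), 35.1% to 66.4% had a summit in the held-out null library. In the held-out AD/- library it was 38.3% to 40.2% where that was library 1, 67% to 68% where it was library 2 and 12.3% to 15.3% where it was library 3. The held-out null library thus had the higher share in 6 of 9 combinations, all 3 with AD/- library 1 and all 3 with AD/- library 3, the shortest list, and in 0 of 3 with AD/- library 2, the longest. With null library 1 and AD/- library 1 held out the shares were 38.8% (95% Wilson interval 35.8 to 41.9) and 38.3% (35.3 to 41.4) of 972 regions, intervals that overlap almost fully.

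The exchanged choice gave lower shares in the held-out null library where AD/- library 2 was held out, and shares within a few points elsewhere. Regions present in 2 AD/- and absent from 2 null libraries (164 to 986) had a summit in the held-out null library in 30.5% to 51.6% of cases, and the null library had the higher share in 4 of 9 combinations. Within the same held-out null library, regions chosen in null exceeded those chosen in AD/- in 8 of 9 combinations, with differences from −1.94 to 19.2 percentage points. With AD/- library 2 held out these differences were 16 to 19.2 points, and with AD/- library 1 or 3 held out −1.94 to 5.32. Within the same held-out AD/- library, regions chosen in null had the higher share in 4 of 9, with differences from −5.82 to 10.9 points. The order of the AD/- libraries was the same for both choices, with library 2 highest and library 3 lowest. List length moved with these shares, and its part in them was not tested.

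**Figure D2:**
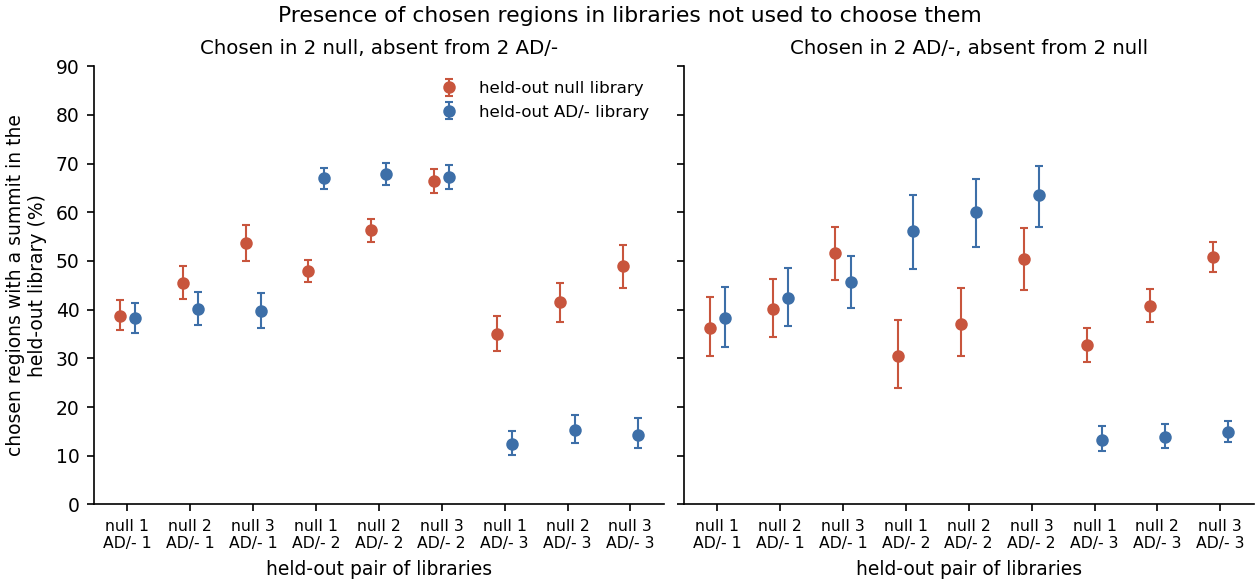
Percent of chosen regions (vertical axis) with a summit in the held-out null library (red) and the held-out AD/- library (blue), for 9 pairs of held-out libraries (horizontal axis), with 95% Wilson intervals that cover counting error only. Regions chosen in null are at left and regions chosen in AD/- at right; in both panels the AD/- points are highest with library 2 (56.1% to 68%) and lowest with library 3 (12.3% to 15.3%).

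Null-leaning regions lay away from promoters. Where a gene had no listed start site, either of its annotated ends counted as a gene start. Within 1 kb of a gene start were 36 regions (3.28%, 95% Wilson interval 2.38 to 4.51), deeper inside protein-coding genes 613 (55.9%, 52.9 to 58.8) and outside genes 448 (40.8%, 38 to 43.8). Of all regions, 17.9% were at a gene start, and of those found in all 6 libraries 28.5%. The shares in the AD/- leaning regions were 4.07% (2.77 to 5.94), 55.7% and 40.2%, and in the regions of 2 or 3 libraries of both genotypes 5.11% (4.53 to 5.76), 55.3% and 39.6%. The interval at gene starts thus overlapped that of the AD/- leaning regions and lay just below that of the regions of both genotypes. The median distance to a gene start was 23071 bp in null-leaning regions, 24284 bp in AD/- leaning regions and 23550.5 bp in the regions of both genotypes, and 318 null-leaning regions (29%) were more than 50 kb from any. These sets were read against each other without a test over samples, since a region of the set has no AD/- value.

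**Figure D3:**
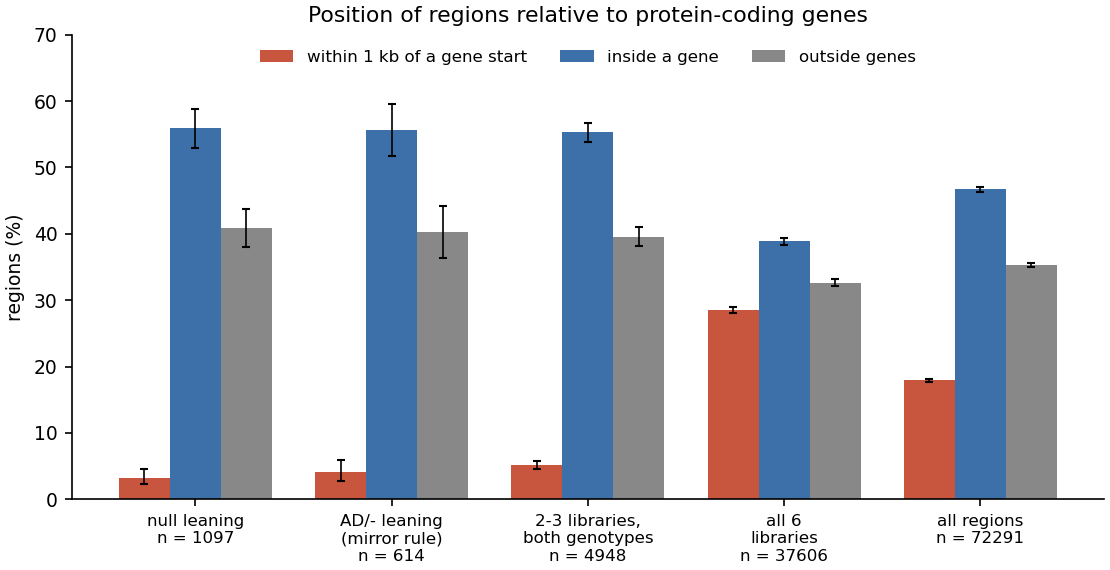
Percent of regions (vertical axis) within 1 kb of a gene start, inside a gene or outside genes, for 5 sets of regions (horizontal axis, with their numbers), with 95% Wilson intervals. The null-leaning, AD/- leaning and few-library sets have 3.28% to 5.11% at gene starts, and regions of all 6 libraries 28.5%.

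The highest-ranked null-leaning regions were near genes of varied function. A region 8366 bp from Rimbp3, a gene of sperm head shaping, stood far above the rest, at the 65.3 percentile in null library 1 and 76.5 in null library 2 (scores 54.4 and 293), with none in null library 3. It lies on chromosome 16 from 17222097 to 17222599, outside genes, and the summits of the libraries that had one are 2 bp apart. Among the others seen in 2 libraries within 50 kb of a gene start were a region 5226 bp from Hnrnpll, a splicing regulator of CD45 in T cells (42.1 and 41.3 in null libraries 1 and 2), and one inside Smarca4, the ATPase of the SWI/SNF chromatin remodeller (38.7 and 42.8 in the same libraries). Regions near Ide, the insulin-degrading enzyme, and inside Dbr1, which opens intron lariats, stood at 42 and 39.5 (null libraries 2 and 3) and at 37 and 42.5 (1 and 3). The other 5, near Capn7, Tmem229b, Abcc3, Dnaaf4 and Dyrk3, had lowest percentiles from 38.3 to 40.5.

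Of the 192 regions seen in all 3 null libraries, none reached a percentile of 50 in all of them. The region 4026 bp from Wnt9a, a Wnt ligand, had percentiles of 46.4, 42.2 and 50.3 in null libraries 1, 2 and 3 (scores 25.4, 54.9 and 36.7). Mtf2 encodes an accessory subunit of Polycomb repressive complex 2, and a region inside it (chromosome 5, 108082323 to 108082829) had 35.4, 35.8 and 36.7. The latter was even across the libraries, while others were not: the region inside Ptp4a3, a phosphatase gene counted among p53 targets, had 34, 50.2 and 37.9, and that nearest to Arpp19, a mitotic inhibitor of PP2A, had 47, 29 and 43.2. Regions at Nlk, a kinase that acts on Wnt signalling, Mical3, Tarbp1, Epb41l1, Tmem69, Dip2a, Dnmbp, Tigd2, Acbd6 and Trim16 were also among the 15 highest within 50 kb of a gene start, with lowest percentiles from 28.1 to 40.6. The nearest AD/- summits to the regions named here were 2072 (Trim16) to 19611 bp (Dip2a) away.

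**Figure D4:**
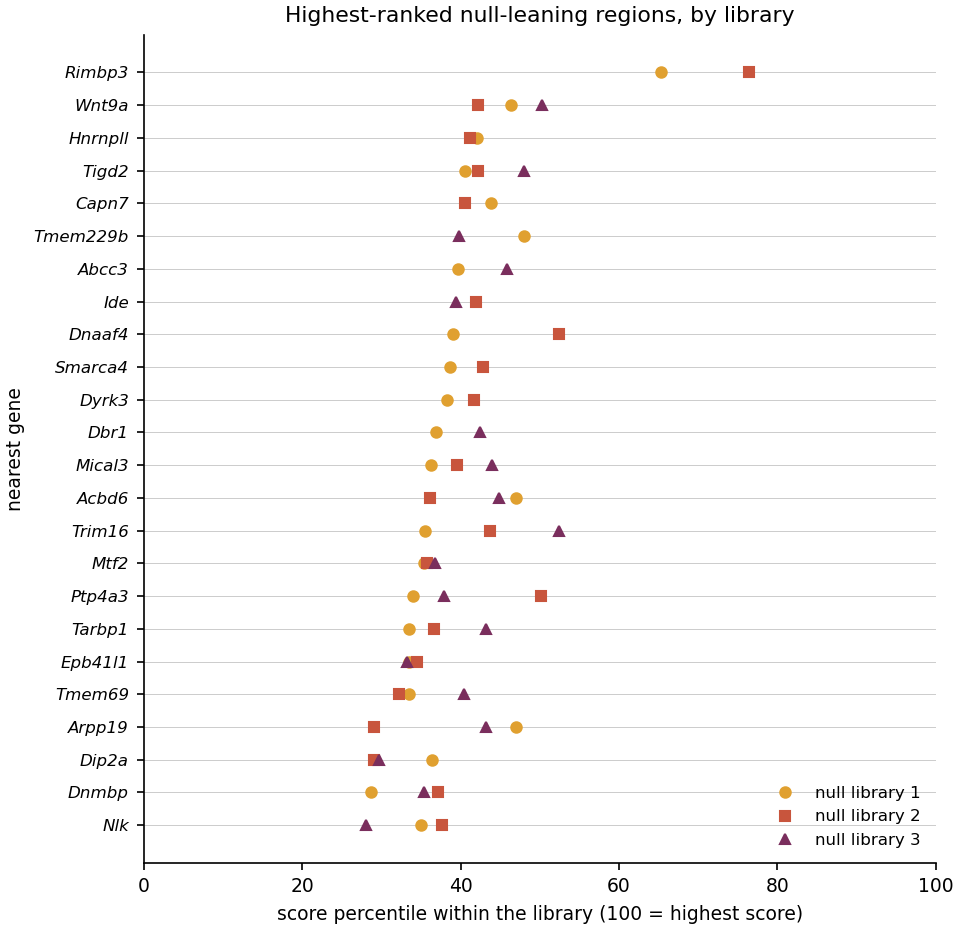
Score percentile within each null library (horizontal axis, 100 = highest score) of the highest-ranked null-leaning regions seen in 3 libraries and the 10 highest seen in 2, by nearest gene (vertical axis). The region near Rimbp3 is the only one with all its points above 50, and regions drawn with 2 points lack a summit in the remaining null library.

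The 36 regions counted at gene starts included some near ion channel and developmental genes. For genes without a listed start site either annotated end counted, so a region may lie at the far end of its gene. The regions near Scnn1a, Prodh2, Sh3pxd2a, Csmd3 and Kcnk3 lay outside genes, 823, 717, 413, 368 and 23 bp from the position counted, which may be the far end. The highest-ranked was near Scnn1a, a subunit of the epithelial sodium channel (33 in null library 1 and 27.8 in null library 3). Next were Prodh2, a hydroxyproline dehydrogenase (25.5 and 42.3, same libraries), and Fgfr2, a fibroblast growth factor receptor (25.5 in library 1 and 36.2 in library 2). At Fgfr2 the nearest AD/- summit was 209586 bp away, at Prox1, a homeobox gene of lymphatic endothelium, 197266 bp, and at Mctp1 194683 bp, so these regions lay in wide stretches without AD/- summits. Csmd3, a large membrane protein gene, had the highest-ranked region counted at a start and seen in all 3 libraries (37.8, 31.6 and 24.7). Sh3pxd2a, the potassium channel gene Kcnk3, the kinase gene Map3k13 and Ermard, which shares its region with Tcte3, had lowest percentiles from 17.2 to 22.6.

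The share of null-leaning regions around genes of T cell development was near the background. Of all regions within 50 kb of a gene start, 1.41% were null leaning and 0.763% leaned to AD/-. Each region was assigned to its nearest gene start within that limit, and 9 of the 880 regions of the 62 T cell development genes were null leaning (1.02%, 95% Wilson interval 0.539 to 1.93, which includes 1.41%). The region nearest to Il7r, the interleukin 7 receptor gene, had percentiles of 10.4, 14.7 and 6.29 in null libraries 1, 2 and 3, and that inside Notch1, the receptor that sets T cell fate, 5.29, 13.3 and 13.9. All 7 others (Cxcr4, Cd4, Myb, Kit, Fli1, Zap70 and Nr4a1) had lowest percentiles under 2. The region inside Cd4, the coreceptor gene, stood at 7.64 in null library 2 and 1.53 in null library 3. T cell receptor signalling genes had 2 null-leaning regions of 341 (0.587%, 0.161 to 2.11), both assigned to Vav1, a guanine nucleotide exchange factor.

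Genes of p53 function and lymphoma were near the background. Of 228 regions assigned to p53 targets, 5 were null leaning (2.19%, 0.94 to 5.03), among them regions at Ptp4a3, Apaf1, Polk and Perp. Apaf1 encodes the scaffold of the apoptosome, and the region inside it stood at 20.2 in null library 1 and 33.2 in null library 3. Perp, a p53-induced membrane protein of apoptosis and cell adhesion, had 12.1 and 7.72 in null libraries 2 and 3. Thymic lymphoma genes had 6 of 316 (1.9%, 0.873 to 4.08), with Evi5 highest (33.5 and 32.1 in null libraries 1 and 3) and 2 regions at Ccnd3, the D-type cyclin of thymocytes, both with a lowest percentile under 2. Apoptosis genes had 1 of 139, at Cflar, an inhibitor of caspase 8, and cell cycle genes 1 of 111, at E2f3. Among PPAR and lipid genes 3 of 206 were null leaning (1.46%, 0.496 to 4.19), at Acadl, an acyl-CoA dehydrogenase, the coactivator gene Ppargc1b and Cpt1a, which carries fatty acids into mitochondria, and 6 leaned to AD/- (2.91%). Glycolysis and TCA genes had 0 of 129, and a share of up to 2.89% lies within the interval.

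Interferon-stimulated and Wnt genes had the highest shares among lists with more than 50 regions. That limit was not planned, and it leaves out erythroid and progenitor markers (2 of 42, 4.76%), whose share was above that of the Wnt genes. Interferon-stimulated genes had 4 null-leaning regions of 76 (5.26%, 2.07 to 12.8) and 0 AD/- leaning ones. They were at Gbp2, a guanylate-binding protein (25.5 and 17.2 in null libraries 1 and 2), Rsad2, the antiviral enzyme viperin (23.8, 13.8 and 15.1), Oas2, an oligoadenylate synthetase (11.7 and 11.6 in libraries 1 and 3), and Irf1, a transcription factor of interferon responses (7.92 and 9.23 in libraries 1 and 2). Wnt ligands and receptors had 5 of 122 (4.1%, 1.76 to 9.24) and 0 AD/- leaning ones: Wnt9a, Wnt8a (7.81, 13.8 and 11.1), the receptor gene Fzd10 with 2 regions, and the coreceptor gene Lrp6 (4.8 and 16.4 in libraries 1 and 3). The intervals of these 2 lists lay above 1.41%, and those of the other 14 of 16 lists included it. With equal list lengths 0 interferon and 2 Wnt regions were null leaning, and with all 3 null libraries required 1 and 2. Without null library 1, 2 or 3 there were 1, 2 and 3 interferon regions and 3, 3 and 3 Wnt regions, and without AD/- library 2 there were 10 Wnt regions. A distance of 5 kb left 2 and 3, and a score of at least 5 for null summits only left 3 of each. These counts were added after seeing the data. The lists were read without a test, and some of these genes were known from earlier results of the same data, so the shares are no independent evidence.

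Markers of other cell types had 0 to 2 null-leaning regions a list, with intervals that all included the background of 1.41%. B cell and endothelial and mesenchymal markers had 0 of 51 and 0 of 62, with upper limits of 7% and 5.83%. Myeloid and dendritic markers had 2 of 80 (2.5%, 0.688 to 8.66), near Irf8 and Flt3, markers of mature T and NK cells 2 of 101, among them a region near Gzma, and erythroid and progenitor markers 2 of 42 (4.76%, 1.32 to 15.8), near Hemgn and inside Kit. The region near Irf8, a regulator of myeloid and B cell development, had percentiles of 21.5 and 23.9 in null libraries 2 and 3. Thymic epithelial markers had 1 of 52, near Psmb11, the thymoproteasome subunit (1.21 and 5.31 in null libraries 1 and 2). Gene starts of these lists were open in much the same numbers in both genotypes apart from AD/- library 3, for example 9 of 22 myeloid genes in the other 5 libraries and 7 in that one. Endothelial and mesenchymal genes went the other way, with 8, 9 and 6 of 20 in AD/- libraries 1, 2 and 3 and 6, 7 and 5 in null libraries 1, 2 and 3.

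Null-leaning regions were spread over all 19 autosomes. They made up 1.18% (chromosome 13, 40 of 3402) to 1.91% (chromosome 9, 79 of 4144) of the regions of a chromosome, with the share on chromosome 9 at a 95% Wilson interval of 1.53 to 2.37. Chromosomes 14 and 12 followed at 1.9% and 1.87%. Of the 104 regions with a percentile of at least 25, 15 were on chromosome 9 and 11 on chromosome 11, with 2 to 9 on each of the others. Chromosome 9 held 79 of the 1097 null-leaning regions and 4144 of all 72291 regions. Chromosome 11 held 80 and 5475. The null-leaning share was above the AD/- leaning share on every one of the 19 chromosomes, for example 1.63% and 0.422% on chromosome 8. All chromosomes were read in the same 6 libraries, so this restates the total shares of 1.52% and 0.849% and does not repeat them independently. The intervals of the extremes, chromosome 9 and chromosome 13 (0.865 to 1.6), overlapped only slightly. These chromosomes were picked as the highest and lowest of 19 after their values had been seen, so no difference is drawn from their intervals.

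**Figure D5:**
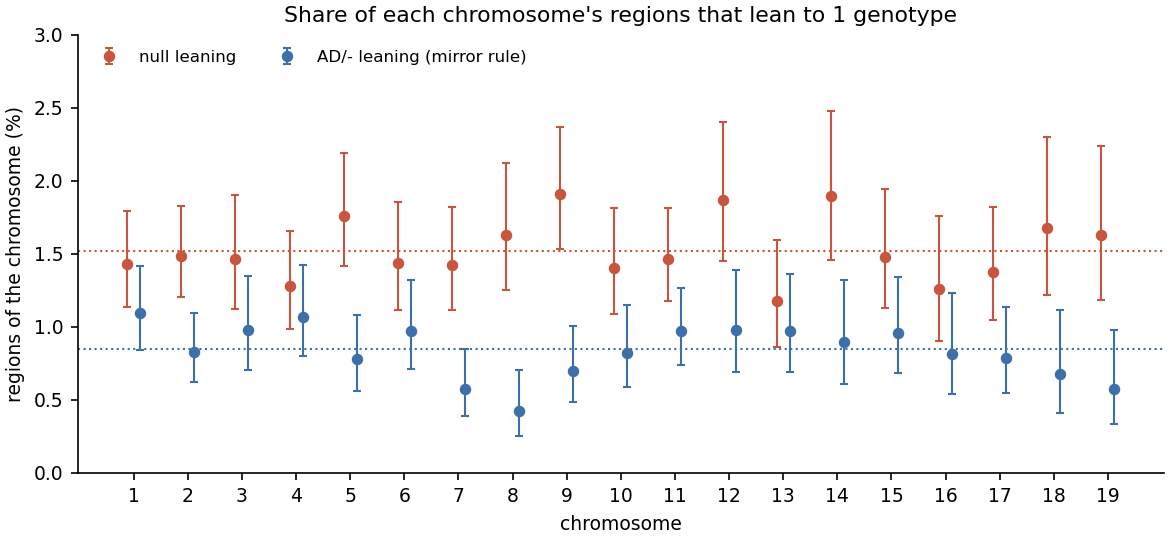
Percent of each chromosome's regions (vertical axis) that leaned to null (red) or to AD/- (blue), by chromosome (horizontal axis), with 95% Wilson intervals; dotted lines are the shares over all 19 chromosomes, 1.52% and 0.849%. Null-leaning shares run from 1.18% on chromosome 13 to 1.91% on chromosome 9.

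Most null-leaning regions stood alone, with 872 more than 100 kb from the next one. There were 89 pairs, 13 runs of 3 and 2 runs of 4. One run of 4 spanned 29.6 kb at Trim16, a gene of the tripartite motif family (chromosome 11, 62815463 to 62845066), where 6 regions lay in all; their lowest percentiles ran from 10.2 to 35.6, and null library 2 took part in all 4. The other spanned 24.7 kb inside Elf1, an ETS transcription factor gene of lymphoid cells (chromosome 14, 79550435 to 79575116), with lowest percentiles from 1.44 to 5.18, again with null library 2 in all 4. A run of 3 on chromosome 11 (64783874 to 64891203) lay 88082 to 194911 bp from the nearest gene start, Elac2, and held 3 of the highest-ranked regions, at 44.4, 46.8 and 32.2 in null library 2 and 48.4, 48.6 and 34.3 in null library 3, with none in null library 1. Another, 317945 to 379803 bp from the starts of Setd4 and Runx1, the transcription factor gene of blood formation, had 2 of its 3 regions in all 3 null libraries. At Txn2, the mitochondrial thioredoxin gene, 3 regions stood within 9.14 kb, with summits of null libraries 1 and 3 and no other region between them. The remaining 10 runs of 3 were at Adnp and Kcng1, Sipa1l2, Alox12e with Alox15 and Pelp1, Myo1d, Aatk with Ndufaf8 and Slc38a10, Grhl1 with Cys1 and Rrm2, Tmprss3 with Rsph1 and Slc37a1, Galnt1, Tnfaip8 and Ppp6r3, and spanned 45.2 to 156 kb.

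Among 219 tiles of 10 Mb with at least 100 regions, the median share of null-leaning regions was 1.53%. The highest was on chromosome 5 between 20 and 30 Mb, with 12 of 248 regions (4.84%) and 0 AD/- leaning ones. Null libraries 1, 2 and 3 took part in 8, 7 and 11 of these 12, and their lowest percentiles ran from 0.539 to 21.1. The tiles ranked 2 to 6 had 3.29% to 4.42%, with 4 to 8 null-leaning regions each. Ranked 7 and 8 were the tiles on chromosome 9 between 70 and 80 Mb and on chromosome 14 between 60 and 70 Mb. They tied at 12 of 384 (3.12%), with 2 and 3 AD/- leaning regions. Of the 12 on chromosome 9, 5 were in all 3 null libraries, 2 lay inside Tcf12, the E protein HEB of T cell development (lowest percentiles 4.48 and 2.73), and 2 inside Rab27a, a GTPase of secretory granules (5.57 and 3.97). These tiles were chosen after their values had been seen.

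Trp53, the altered gene, lies on chromosome 11 from 69580348 to 69591873. Within 1 Mb of it were 5 null-leaning regions, nearest to Cntrob, Kdm6b, Alox12e, Alox15 and Pelp1, with lowest percentiles from 2.32 to 25.2. Within 5 Mb, 15 of 431 regions (3.48%) were null leaning and 4 (0.928%) leaned to AD/-, compared with 57 of 4372 (1.3%) and 42 (0.961%) beyond 10 Mb on the same chromosome. A summit of null library 3 was in all 15, of library 2 in 10 and of library 1 in 7, and 2 were in all 3. Without null library 3 the shares were 2 of 418 (0.478%) and 24 of 4241 (0.566%), so the difference rested on that library. The distances were chosen after the data had been seen, and sequence linked to the p53 alleles and the genotype cannot be told apart in this design.

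The surroundings of null-leaning regions were compared between genotypes in 3 measures read more than 2 kb away from these regions. The rule still enters the measure of flanking summits, and list length the ranks of neighbouring regions, as described below. Of the 740 genes nearest to a null-leaning region within 50 kb, 72.8%, 73.4% and 73% had a summit within 1 kb of a gene start in null libraries 1, 2 and 3, leaving out summits within 2 kb of a null-leaning region, and 72.8%, 74.5% and 70.5% in AD/- libraries 1, 2 and 3. The means were 73.1% ± 0.28 and 72.6% ± 1.97 (SD, n = 3 each; exact permutation test over 20 relabellings, two-sided, p = 0.8, adjusted p = 0.8). Without AD/- library 3 the difference turned from 0.45 to −0.946 points. The summits between 2 and 50 kb from a null-leaning region made up 9.88%, 10% and 9.95% of the autosomal summits of null libraries 1, 2 and 3 and 10.1%, 10.2% and 10% of those of AD/- libraries 1, 2 and 3. The means were 9.94% ± 0.063 and 10.1% ± 0.11 (SD, n = 3 each), a difference of −0.17 points, larger than either SD, with null library 2 and AD/- library 3 nearly equal (exact permutation p = 0.2, adjusted p = 0.6). In 11 of 17 alternatives p was 0.1, the smallest this exact permutation test allows, and over all 17 it ran from 0.1 to 0.9, with 0.9 without null library 1 or without null library 3. The autosomal totals of null libraries 1, 2 and 3 include the summits of 702, 806 and 878 null-leaning regions, which cannot count as flanking. No AD/- summit lies within 2 kb of such a region. The rule thus lowers the null shares, so neither this difference nor its p-values are an independent comparison of genotypes.

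Neighbouring regions found in all 6 libraries also had similar ranks. The mean percentile of the 3748 such regions between 2 and 50 kb away was 61.3, 62.8 and 64.4 in null libraries 1, 2 and 3 and 62, 65.4 and 54.6 in AD/- libraries 1, 2 and 3. The AD/- values spanned the null ones, with library 2 above and library 3 below all 3 (means 62.8 ± 1.54 and 60.7 ± 5.53, SD, n = 3 each; exact permutation p = 0.8, adjusted p = 0.8). Without AD/- library 3 this difference turned from 2.16 to −0.948, and with equal list lengths it was 2.48. A percentile depends on the length of its list, and the 6 values stood in the order of list length. The shortest list was AD/- library 3 (43589 autosomal summits) and the longest AD/- library 2 (58996). The part of list length in these ranks was not tested, so they are no independent comparison of genotypes. The smallest p this design allows is 0.1, so none of the 3 tests could have passed a threshold of 0.05. The labels do not say that the libraries came from separate mice, so these p-values measure the spread between libraries.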

How the data were processed

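ATAC-seq summit lists of 6 thymus libraries were analysed, 3 from p53 AD/- and 3 from p53 -/- mice, grouped by the genotype label and numbered in order of deposition. The authors deposited 1 list per library, with each summit's position and a score that was taken to be a −log10 q-value, since the lowest deposited scores are 1.30 to 1.39 and a q-value of 0.05 gives 1.30. Per the submitters' processing notes, MACS2 2.1.2 and Picard 2.9.0 were used along with Bowtie2 2.3.4.2, the build was GRCm38, and reads passed through Trim Galore 0.4.5; settings are not listed there. Read shifting, duplicate removal and masking are not given in the sources used here. Read counts and peak widths were not used here, so depth is unknown and an absent summit is not evidence of closed chromatin.

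Summits on chromosomes 1 to 19 were extended by 250 bp and merged (Python 3.11.15, pandas 2.3.3). Of 20661 protein-coding genes on these chromosomes (RefSeq, GRCm38.p6), 16456 had a listed start site, and either annotated end stood in for the other genes. A region's centre was used for gene positions and its edges for distances to summits. Wilson intervals (95%) cover counting error only. Differences between libraries were tested with exact permutation tests, and the 3 p-values were adjusted by the Benjamini-Hochberg method (statsmodels 0.14.6). The calling of regions was checked with artificial sites planted among the deposited summits, which checks the calling only and not differences between genotypes. Named regions were the 15 highest-ranked with a summit in 3 null libraries and the 10 highest in 2 (within 50 kb of a named gene, 1 per gene), the 10 highest at gene starts, up to 6 per gene list, runs of at least 3, those nearest the 2 kb limit and those within 1 Mb of Trp53. Some regions that this rule names are not reported here. Of 462 list entries, 450 matched the gene table. The regions, lists and tests were chosen with earlier results of these data known. Motifs were searched only in RefSeq promoter windows, since no genome sequence was used here. Alternatives were other extensions, distances, score limits, list lengths, numbers of libraries, merging within a genotype, other gene start and flank widths, and each library left out in turn.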

Additional observations from a re-analysis of the deposited data

How the results depend on the processing

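The 1097 null-leaning and 614 AD/- leaning regions depend on the lists. With scores of at least 5 for null summits only they became 671 and 1116, and with that limit in every library 1105 and 321. Equal list lengths gave 643 and 517, a distance of 5 kb 729 and 424, and all 3 libraries 192 and 55. Of the 1097 regions, 201 (18.3%) remained with equal list lengths. Leaving out 1 library gave 412 to 3061 null-leaning and 112 to 1242 AD/- leaning regions; without null library 1, 2 or 3 the AD/- leaning regions were the more numerous (911, 1010 and 1242 against 587, 484 and 412). Without AD/- library 1 or 2 there were 1749 and 3061 null-leaning against 149 and 112 AD/- leaning regions. The direction of these shifts is set by the rule, which becomes stricter for the genotype that loses a library and looser for the other. The share at gene starts was 4.62% with scores of at least 5, 5.13% with equal lists and 4.83% with a window of 2 kb, and 2.73% to 4.87% with 1 library left out. The difference in gene ends of nearest genes was −0.214 points with the score limit for null summits only and 0 with flanks of 20 kb, and −0.946 to 1.1 with 1 library left out. The difference in rank of shared neighbours was −0.948 to 4.59 with 1 library left out. The excess near Trp53, 2.18 points, was 0.19 points with all 3 libraries required and −0.0874 to 2.72 with 1 library left out. The share of summits flanking null-leaning regions was lower in null in all 17 alternatives, with an exact permutation p of 0.1 in 11 of them. Summits inside null-leaning regions count only in the null totals, which lowers the null share in every alternative. The agreement of the alternatives is therefore no independent evidence of a difference between genotypes. For all of these the cause was not tested. No paired analysis was possible because the labels give no replicate numbers that groups share.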
